A study of Mus musculus with 4 samples.

Results

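Transcripts of 10 genes of insulin signalling and insulin-like growth factor (IGF) binding were followed in liver RNA of wild-type (WT) mice and of mice with a knockout (KO) of Fto, which encodes an RNA demethylase. They are the insulin receptor gene Insr, the receptor substrate genes Irs1 and Irs2, the kinase gene Akt2, the transcription factor genes Foxo1 and Foxo3, the IGF binding protein genes Igfbp1, Igfbp2 and Igfbp4, and the pseudokinase gene Trib1. They were chosen by symbol, and each matched 1 of the 37315 gene identifiers counted. Both groups were C57BL/6 mice of 23 weeks, the KO differing by the Fto knockout, and 2 libraries were made per genotype. The labels do not state how the Fto allele was made, whether the animals were fed or fasted, or whether each library came from its own animal; if replicates share an animal, the p-values reflect technical spread only.

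Insulin binds its receptor, a tyrosine kinase that phosphorylates the docking proteins IRS1 and IRS2. These recruit phosphoinositide 3-kinase, which leads to activation of AKT2, the main AKT of hepatocytes. AKT phosphorylates FOXO1 and FOXO3 and so keeps them out of the nucleus, where in fasting they drive genes of glucose output, and Irs2 and Igfbp1 among others. IGF binding proteins are secreted and hold IGFs in the circulation and tissues; hepatocytes make IGFBP1, IGFBP2 and IGFBP4. TRIB1 is a scaffold that brings C/EBP factors to the ubiquitin ligase COP1. Much of this pathway is controlled on the protein, by phosphorylation or degradation, which RNA counts do not measure.

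Promoters are shown for 3 of the genes, because Irs2 and Igfbp2 had the largest differences between genotypes and Igfbp1 carries the insulin response element known from textbooks. The windows are from RefSeq (GRCm38.p6), run from 250 bases before the annotated start to 50 bases after it on the gene's strand, and were in the table for 8 of the 10 genes (not for Insr and Trib1), with 12 windows in all. Capitals mark a match to the FOXO-type motif TGTTTTG, which reads as CAAAACA when it lies on the other strand. The Irs2 window is chr8:11008880-11009179, minus strand; the Igfbp1 window is chr11:7197537-7197836, plus strand; and the Igfbp2 window is chr1:72824230-72824529, plus strand.
Irs2: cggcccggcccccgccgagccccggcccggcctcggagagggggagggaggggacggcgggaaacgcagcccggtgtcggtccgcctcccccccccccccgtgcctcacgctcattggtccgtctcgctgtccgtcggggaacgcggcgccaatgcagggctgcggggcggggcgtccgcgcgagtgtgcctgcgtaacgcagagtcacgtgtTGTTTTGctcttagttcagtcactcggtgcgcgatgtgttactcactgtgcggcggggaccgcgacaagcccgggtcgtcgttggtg
Igfbp1: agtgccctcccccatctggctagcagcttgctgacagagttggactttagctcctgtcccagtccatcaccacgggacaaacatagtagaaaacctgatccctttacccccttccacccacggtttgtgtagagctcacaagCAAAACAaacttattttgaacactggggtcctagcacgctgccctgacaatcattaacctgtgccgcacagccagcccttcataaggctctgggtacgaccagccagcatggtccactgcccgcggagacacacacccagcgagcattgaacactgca
Igfbp2: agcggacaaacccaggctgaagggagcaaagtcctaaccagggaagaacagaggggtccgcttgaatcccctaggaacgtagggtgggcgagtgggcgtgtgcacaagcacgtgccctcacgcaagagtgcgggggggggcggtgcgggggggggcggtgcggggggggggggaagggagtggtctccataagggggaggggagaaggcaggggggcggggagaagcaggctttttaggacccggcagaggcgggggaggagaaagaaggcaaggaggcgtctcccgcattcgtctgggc
The Irs2 match began 37 bases before its RefSeq start and the Igfbp1 match 108 bases before its own, on the opposite strand. The gene positions given below, from GENCODE, put the Irs2 start at 11008458, outside and downstream of the Irs2 window. Irs1 held 2 matches, 111 and 32 bases before its start. Neither Igfbp2 window, nor those of Akt2, Foxo1, Foxo3 and Igfbp4, held this motif, and none of the 12 windows held the other motif searched, TGTTTAC, or its reverse complement, which reads GTAAACA. Of all 32851 promoter windows of this length, 6.28% held TGTTTTG and 3.65% held TGTTTAC on either strand. A match describes letters, not a bound site.

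Levels are in CPM, the read count as a share of the library's size after scaling by the trimmed mean of M values (TMM), where 1 read was worth 0.0224 to 0.0253 CPM before that scaling. The libraries held between 39549592 and 44689114 counts. Fto itself was at 41.2 and 33.9 CPM in WT and 13.1 and 12.1 CPM in KO. By edgeR's quasi-likelihood test it fell, with an adjusted p of 0.0109 and a log2 fold change of -1.57 (SE 0.195), counted over the whole gene and not over a deleted part. The hepatocyte markers, among them Alb, were at 73378 to 95640 CPM in sum and none was at 0 in a library. All 10 Kupffer cell markers had higher levels in both KO libraries than in either WT library, with sums of 160 and 239 CPM in WT and 346 and 372 CPM in KO; 2 of them, Marco and Csf1r, passed the test, and no gene of the other 7 marker lists did. In bulk tissue, fewer cells of a type and less RNA per cell cannot be told apart. Sums of endothelial markers (97.7 and 144 CPM in WT, 129 and 112 CPM in KO) and of bile duct markers (26.4 and 39.01 CPM in WT, 33.5 and 44.7 CPM in KO) overlapped between genotypes, and stellate cell markers (146 and 205 CPM in WT, 147 and 156 CPM in KO) did too. Sums follow the most abundant markers. By gene, 1 of 7 endothelial markers (Lyve1), 3 of 6 stellate and 0 of 5 bile duct markers had both KO libraries below both WT libraries, beside 20.4% of all tested genes. In these lists 0 had both above. Lymphocyte markers summed to 1.12 to 2.29 CPM. Fat cell markers were at 3.44 and 10.2 CPM in WT and 0.497 and 6.42 CPM in KO, and erythroid markers at 241 and 277 CPM in WT and 170 and 191 CPM in KO. All 5 fat cell markers were higher in replicate 2 than in replicate 1 of either genotype. Replicate 1 had an Adipoq count of 1 (WT) or 0 (KO), and replicate 2 had 70 or 71. The Lep count was 0 in each replicate 1 library, against 41 (WT) or 36 (KO) in replicate 2. The part of this replicate difference in the other results was not tested.

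Replicates 1 and 2 differed with transcript length in both genotypes, and several of the 10 genes have long transcripts. On the log2 scale, protein-coding genes with a longest transcript above 8000 bases had a median difference of replicate 2 from replicate 1 of -0.49 (WT) and -0.46 (KO). For transcripts of 1000 to 2000 bases these medians were 0.26 and 0.15. Insr, with a transcript of 9355 bases, had log2 ratios of -0.69 and -0.70, and Igfbp1, with 1525 bases, had 0.67 and 0.53. Irs2, with 6323 bases, had -1.30 and -1.02, below the 10th percentile of -0.82 in both genotypes for genes of 6000 to 8000 bases. For this reason the KO over WT ratio is also given within replicate 1 and within replicate 2; each holds 1 library per genotype, so there is no test within a number.

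**Figure D1:**
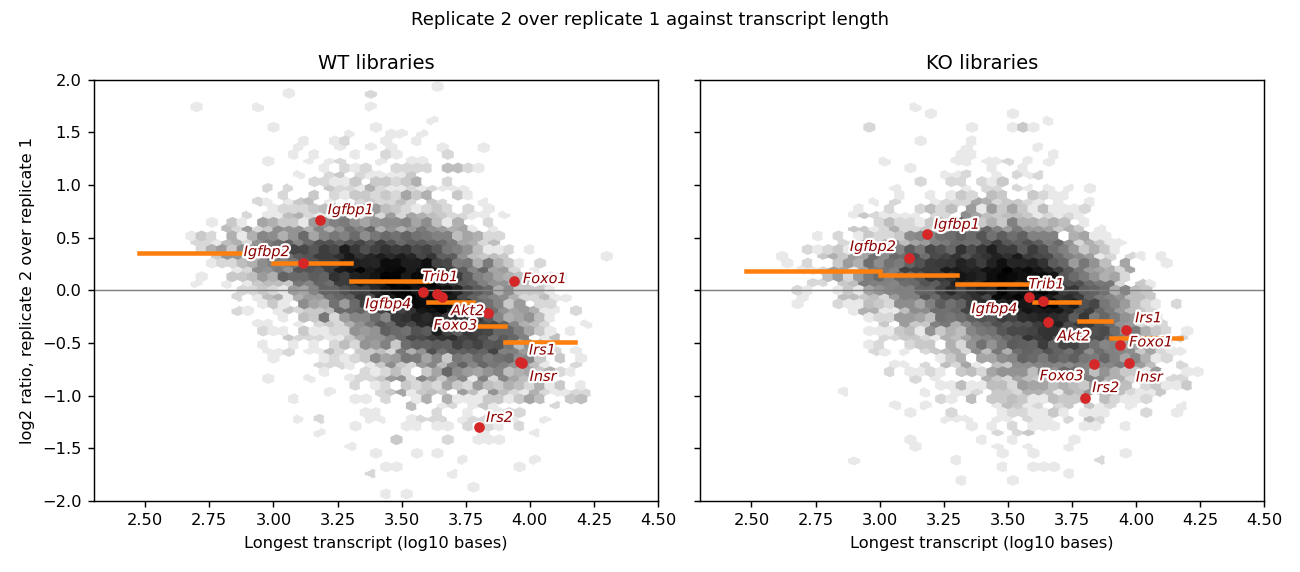
Log2 ratio of replicate 2 over replicate 1 in WT (left) and KO (right) against the log10 length of the longest transcript. Grey shading is the density of tested protein-coding genes (log scale; ratios beyond 2 in size are not drawn), orange lines are class medians, from 0.36 to -0.49 in WT, and red points are the 10 genes; Irs2 is the lowest red point in both panels.

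Levels of the 10 genes spanned a wide range. Per kilobase of the longest transcript, WT liver had 515 ± 4.4 CPM of Igfbp4 and 311 ± 38.9 CPM of Igfbp2 (SD, n = 2 each here and below). Akt2 followed with 28.5 ± 0.907 CPM per kilobase, Igfbp1 with 18.3 ± 5.90, Trib1 with 14.7 ± 0.242, Insr with 11.5 ± 3.81, Foxo3 with 8.39 ± 0.900 and Foxo1 with 4.71 ± 0.197. Irs1 and Irs2 were lowest, with 1.48 ± 0.485 and 1.14 ± 0.680 CPM per kilobase. In this WT order the libraries of neighbours overlapped for Igfbp1 and Trib1, for Insr and Foxo3, and for Irs1 and Irs2, and were separate for the other 6 pairs. The 2 ends of the order differed in KO: Igfbp2 had 604 ± 89.8 CPM per kilobase, overlapping Igfbp4 with 544 ± 16.8, and Irs2 had 2.60 ± 1.24, with both libraries above those of Irs1 (1.29 ± 0.234).

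**Figure D2:**
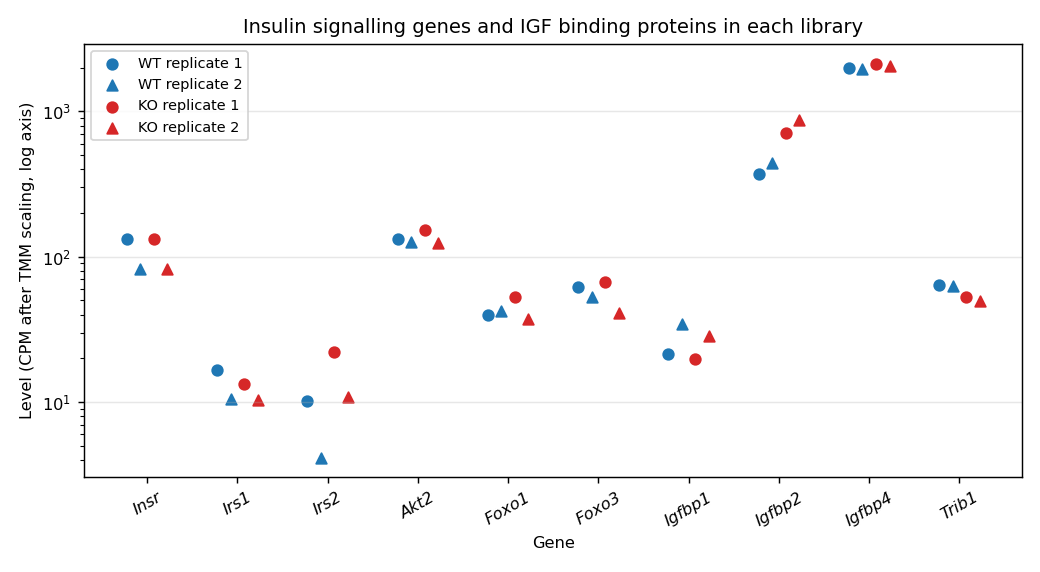
Level of each gene (CPM after TMM scaling, log axis) in the 4 libraries; blue is WT, red is KO, circles are replicate 1 and triangles replicate 2. Both red points of Igfbp2 (706 and 872 CPM) lie above both blue ones (370.3 and 442 CPM), and Irs2 shows the widest spread within a genotype on the log axis.

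The comparison of KO with WT addresses whether loss of Fto goes with other levels of these transcripts in liver. None of the 10 genes passed the test across all genes at an adjusted p under 0.05, where 1.91% of the 13836 tested genes did (264 genes, edgeR; 0.961% higher and 0.947% lower in KO). At an unadjusted p under 0.05, 2 were higher in KO, Igfbp2 and Irs2, and none was lower, where 13.0% of all tested genes had such a p. Of all tested genes 6.53% had an unadjusted p under 0.05 with a higher level in KO and 6.48% with a lower one. DESeq2, whose calls took in 3.72% of genes, called 1 of the 10, Igfbp2, and limma-voom, with 1.86% of genes called, called none. The median log2 fold change of the 10 was 0.04, and that of all tested genes 0.01. KO and WT libraries did not overlap for 4 of the 10, Igfbp2, Irs2 and Igfbp4 with KO above and Trib1 with KO below, where 42.0% of all tested genes had such separate groups, 21.6% with KO above and 20.4% with KO below. Other settings called 2.04% of genes (DESeq2's size factors), 1.27% (library size alone), 3.51% (length offsets) and 3.7% (no filter on low counts), and 4.42%, 3.6%, 3.23% and 3.56% without WT replicate 1, WT replicate 2, KO replicate 1 and KO replicate 2. Of the 10 these called Igfbp2, Irs2, both or, with DESeq2's size factors, none. With the replicate number as a term, which the labels do not say pairs the libraries, Igfbp2, Irs2 and Trib1 were called, where 19.7% of all genes were (18.1% with length offsets as well).

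**Figure D3:**
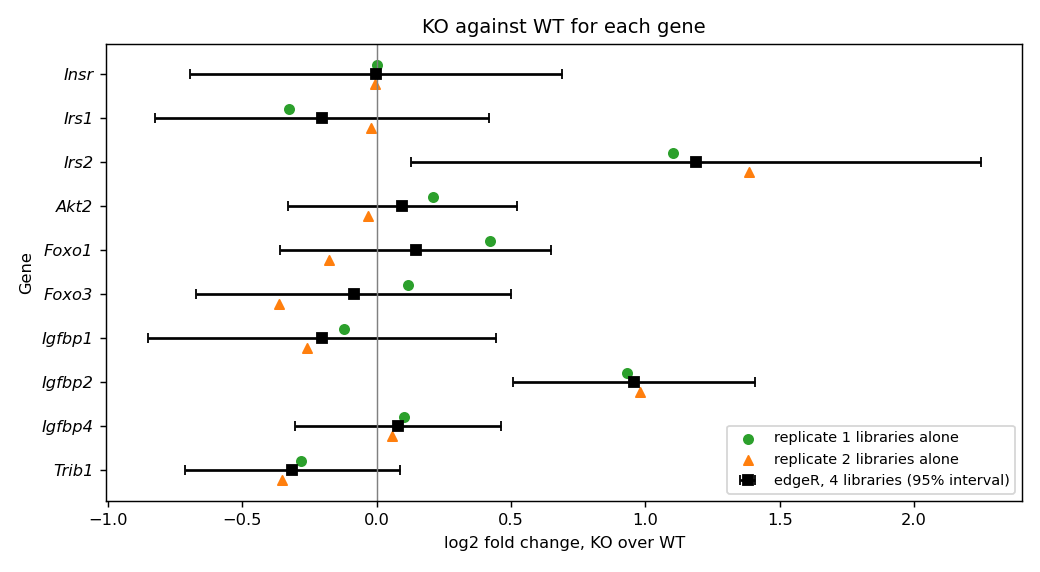
Log2 fold change of KO over WT for each gene. Black squares and bars are the edgeR estimate from 4 libraries and its 95% interval, green circles the ratio within replicate 1 and orange triangles that within replicate 2; the intervals of Igfbp2 and Irs2 lie above 0 before adjustment for the number of genes tested, and Foxo1, Foxo3 and Akt2 have ratios of opposite sign in the 2 replicates.

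Igfbp2 (chromosome 1, 72824503 to 72852474, plus strand, mm10), which encodes an abundant IGF binding protein of liver and plasma, was at 370.3 and 442 CPM in WT and 706 and 872 CPM in KO. Both KO libraries stood above both WT libraries. Its level was 1.94-fold in KO (95% interval 1.42 to 2.65; log2 fold change 0.96, SE 0.194), which just missed the threshold (adjusted p = 0.0580, edgeR). The ratio of KO over WT was 1.91 within replicate 1 and 1.97 within replicate 2. With library size alone as the scaling Igfbp2 passed (adjusted p = 0.0492), as it did when a smooth fit of transcript length was taken out (0.00964). Leaving out single libraries gave an adjusted p from 0.00580 without KO replicate 1 to 0.115 without WT replicate 1, and 0.0169 and 0.0932 without WT replicate 2 and KO replicate 2. Kupffer cell markers also had higher levels in KO (sums above); their part in the Igfbp2 difference was not tested.

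Igfbp1 (chromosome 11, 7197782 to 7202546, plus strand), whose transcription is switched off by insulin through its FOXO element, did not show the Igfbp2 pattern. It was at 21.5 and 34.2 CPM in WT and 19.7 and 28.6 CPM in KO. The groups overlapped, and replicate 2 was higher than replicate 1 in both genotypes. Its fold of KO over WT was 0.867, with a 95% interval of 0.554 to 1.36 (adjusted p = 0.853, edgeR), and the sign turned when WT replicate 2 or KO replicate 1 was left out (log2 fold changes of 0.16 and 0.04).

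Igfbp4 (chromosome 11, 99041244 to 99054392, plus strand), another binding protein that limits IGF action, was the most abundant of the 10 in CPM. It was at 1985 and 1961 CPM in WT and at 2131 and 2040 CPM in KO. Although KO lay above WT in each case, the fold was 1.06 with a 95% interval of 0.809 to 1.38 (adjusted p = 0.918, edgeR). Ratios between genes of 1 library do not depend on how libraries are scaled. They are not corrected for the difference with transcript length between replicates, and the longest transcript has 1307 bases for Igfbp2 and 3831 for Igfbp4. Per kilobase, Igfbp2 stood at 0.547 and 0.661 times Igfbp4 in WT and at 0.971 and 1.25 times Igfbp4 in KO. It was the lower of the 2 in 3 libraries and the higher in KO replicate 2.

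The list of IGF binding proteins, the acid-labile subunit gene Igfals, IGFBP proteases and the genes Stc1 and Stc2 held 13 genes. Of its 6 tested genes that are not among the 10, none was called. Igfbp5 lies 5457 bases beyond the end of Igfbp2 on the opposite strand and encodes another IGF binding protein. It was at 15.4 and 14.1 CPM in WT and 8.54 and 7.496 CPM in KO, or -0.88 as a log2 fold change (SE 0.194, edgeR adjusted p of 0.0765), and so these neighbours had estimates of opposite sign. Igfbp5 passed in 5 of the 8 other settings that kept all libraries, among them DESeq2 (adjusted p = 0.0232) and length offsets (0.0249). With a library left out, its log2 fold change ranged from -0.97 to -0.80. Igfbp3, which lies 3539 bases beyond Igfbp1 and encodes the main carrier of circulating IGF1, had 10.9 and 15.7 CPM in WT and 8.501 and 13.7 CPM in KO (adjusted p = 0.794). Igfals, which encodes the subunit that completes that carrier, was at 105 and 129 CPM in WT and 145 and 176 CPM in KO (log2 fold change 0.45, adjusted p = 0.384). Pappa, Pappa2, Stc1 and Stc2 were too low to test, with at most 11 reads in a library. Stellate cell markers, whose sums are given above, had negative log2 fold changes in 6 of 6 genes (median -0.34) and none was called; their part in the Igfbp5 difference was not tested.

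Irs2 (chromosome 8, 10984681 to 11008458, minus strand), the receptor substrate whose transcript is induced by FOXO factors in fasting, had the largest log2 fold change of the 10. It was at 10.2 and 4.15 CPM in WT and at 21.98 and 10.8 CPM in KO. The WT libraries had 434 and 158 reads of it, and the KO libraries 1016 and 434. The lowest KO library was barely above the highest WT library, and in both genotypes replicate 2 held less than replicate 1. The fold was 2.28 (95% interval 1.09 to 4.75; log2 fold change 1.19, SE 0.456), which did not pass over all genes (adjusted p = 0.322, edgeR). Within replicate 1 the ratio of KO over WT was 2.15 and within replicate 2 it was 2.61. The size of its log2 fold change, and whether it passed, changed with the library left out. Leaving out a library also leaves the replicate numbers unbalanced between the genotypes. With all libraries and the replicate number as a term, the log2 fold change was 1.23 (SE 0.146). Leaving out WT replicate 1 gave 1.98 and leaving out KO replicate 2 gave 1.60, both past the threshold (adjusted p of 4.41e-07 and 1.60e-05). Leaving out WT replicate 2 gave 0.67 and leaving out KO replicate 1 gave 0.59, neither past it (0.311 and 0.573). With no filter on low counts it passed (adjusted p = 0.00139).

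Irs1 (chromosome 1, 82233101 to 82291416, minus strand), the other docking protein of the receptor, was at 16.7 and 10.4 CPM in WT and 13.3 and 10.3 CPM in KO. Its groups overlapped, with replicate 1 higher in each genotype. The fold was 0.869 with a 95% interval of 0.565 to 1.34 (adjusted p = 0.846, edgeR), and the sign turned without WT replicate 1 (log2 fold change 0.18). Within a library, Irs2 per kilobase was 0.886 and 0.576 times Irs1 in WT and 2.39 and 1.53 times Irs1 in KO. Irs1 was thus the higher of the 2 substrates in each WT library and Irs2 in each KO library, a pattern given as a description without a test.

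**Figure D4:**
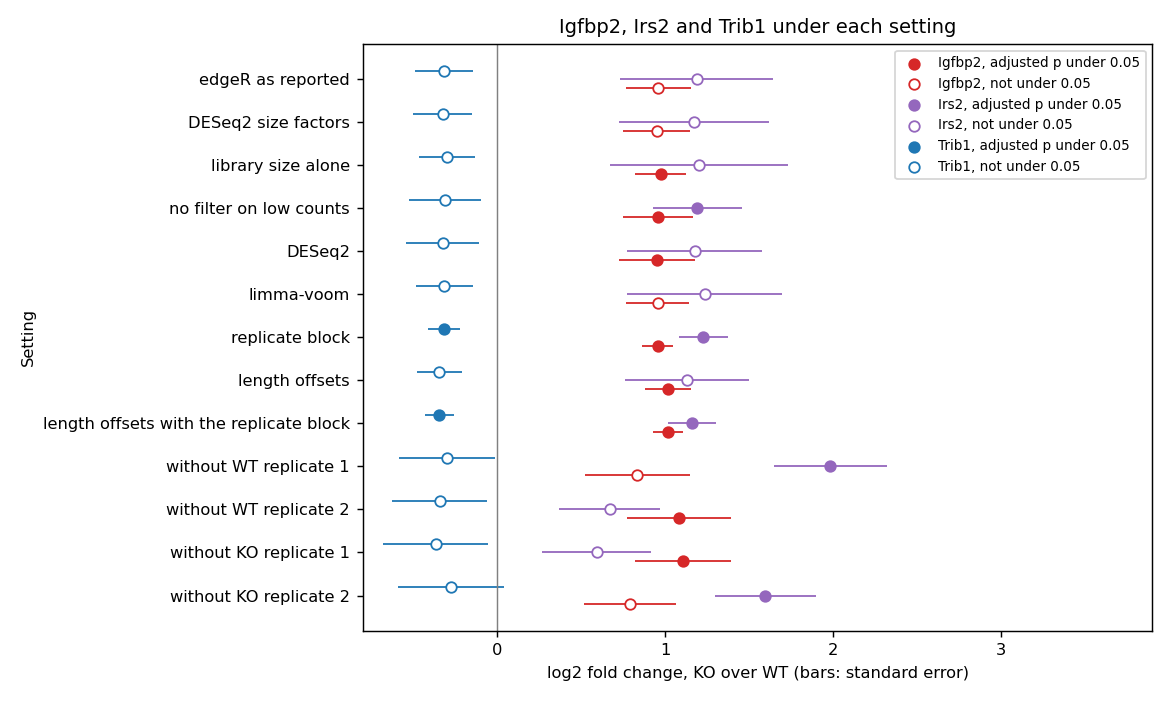
Log2 fold change of KO over WT for Igfbp2, Irs2 and Trib1 under each setting, with bars of 1 standard error; filled points have an adjusted p under 0.05. Igfbp2 stays between 0.79 and 1.10, Irs2 ranges from 0.59 to 1.98 with the library left out, and Trib1 stays below 0, with filled points only in the 2 settings that have the replicate number as a term (replicate block).

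Insr (chromosome 8, 3122061 to 3279617, minus strand), the receptor itself, had near-equal levels in the 2 genotypes once libraries of the same replicate number were set side by side. It was at 133 and 82.2 CPM in WT and at 133 and 81.8 CPM in KO. The spread within a genotype was large and alike in both, with replicate 2 lower. The fold was 0.998, with a 95% interval of 0.617 to 1.61 (adjusted p = 0.999, edgeR), and the ratio was 0.9998 within replicate 1 and 0.996 within replicate 2. The sign of so small a difference turned with library size alone as the scaling (log2 fold change 0.01).

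Akt2 (chromosome 7, 27591552 to 27640826, plus strand), the AKT kinase that carries most of the insulin signal in hepatocytes, was at 132 and 126 CPM in WT and 153 and 124 CPM in KO. The KO libraries lay on both sides of the WT ones. The fold was 1.07 (95% interval 0.796 to 1.43, adjusted p = 0.908, edgeR), and its sign turned without KO replicate 1 (log2 fold change -0.06).

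Foxo1 (chromosome 3, 52268336 to 52353221, plus strand), the main FOXO factor of glucose output in liver, was at 39.6 and 42.0 CPM in WT and 53.1 and 37.1 CPM in KO. Foxo3 (chromosome 10, 42181841 to 42276755, minus strand), which shares many of its targets, was at 61.8 and 53.1 CPM in WT and 67.0 and 41.2 CPM in KO. For both factors KO replicate 1 was the highest library and KO replicate 2 the lowest, so the KO libraries enclosed the WT ones. The fold was 1.11 for Foxo1 (95% interval 0.780 to 1.57, adjusted p = 0.868, edgeR) and 0.943 for Foxo3 (0.628 to 1.41, adjusted p = 0.947). Either sign turned with 1 library left out: Foxo1 was at -0.13 without KO replicate 1, and Foxo3 at 0.03 without WT replicate 1 and 0.21 without KO replicate 2 on the log2 scale. Foxo4 was at 36.6 and 30.9 CPM in WT and 37.3 and 31.1 CPM in KO, and Foxo6 was too low to test, with at most 6 reads in a library.

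Trib1 (chromosome 15, 59648350 to 59657099, plus strand), the COP1 scaffold known for its part in plasma lipid levels, was the only one of the 10 with both KO libraries below both WT libraries. It was at 64.4 and 62.9 CPM in WT and at 53.0 and 49.3 CPM in KO. The replicates of each genotype lay close together. The fold was 0.804 (95% interval 0.609 to 1.06; log2 fold change -0.31, SE 0.172, adjusted p = 0.517, edgeR), with ratios of 0.823 within replicate 1 and 0.784 within replicate 2. It passed only in the 2 settings with the replicate number as a term (adjusted p of 0.0209, and 0.0122 with length offsets). Its partners on the list fixed for it did not pass: Cop1 was at 45.2 and 48.2 CPM in WT and 47.9 and 46.8 CPM in KO, Cebpa had a log2 fold change of 0.16 (adjusted p = 0.805), and Cebpb, whose replicate 2 was higher in both genotypes, had -0.37 (adjusted p = 0.665). Trib3, a related pseudokinase that binds AKT and is induced in stress, was at 14.2 in each WT library and 8.76 and 8.55 CPM in KO (log2 fold change -0.72, SE 0.185, adjusted p = 0.123).

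The rest of the pathway was taken from 9 lists, which hold 89 further genes of which 81 could be tested. Of these 1 rose and 1 fell, with a median log2 fold change of 0.02 where that of all tested genes was 0.01. This is 2 of 81, beside 1.91% of all genes. At an unadjusted p under 0.05, 5 of the 81 were higher and 7 lower, beside 6.53% and 6.48% of all tested genes. Medians over the lists, the 10 genes included, were 0.34 for receptors and ligands, 0.05 for adaptors and phosphoinositide 3-kinase, 0.08 for AKT, GSK3 and mTOR, 0.14 for brakes, 0.02 for TRIB1 partners, 0.02 for FOXO factors and -0.11 for IGF binding.

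The gene that rose was Socs3, a feedback inhibitor that is induced by cytokine signals and blocks IRS proteins. It was at 4.15 and 3.15 CPM in WT and at 8.67 and 10.6 CPM in KO, from 120 to 424 reads per library. Both KO libraries stood above both WT libraries. The log2 fold change was 1.40 (SE 0.246, adjusted p = 0.0352, edgeR), and the call was lost with library size alone (adjusted p = 0.0669). It lies on the list of brakes on insulin signalling, where 1 of 17 tested genes was called, 10 had positive and 7 negative log2 fold changes, and Trib3, described above, had the second smallest p with a lower level in KO. On the same list Ide, the insulin-degrading protease, was at 85.8 and 77.3 CPM in WT and 123 and 112 CPM in KO (adjusted p = 0.236), and Phlpp2, a phosphatase of AKT, was at 2.78 and 2.05 CPM in WT and 5.602 and 3.62 CPM in KO (adjusted p = 0.243). Kupffer cell markers were higher in the same libraries, and their part in the Socs3 difference was not tested.

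The gene that fell was Scd1, the desaturase induced by insulin through SREBP1c. It was at 9433 and 12939 CPM in WT and at 2772 and 4287 CPM in KO (log2 fold change -1.66, SE 0.265, adjusted p = 0.0245, edgeR). It was the only called gene of 8 on the list of insulin-induced genes, 7 of which had negative log2 fold changes (median -0.38). Of all 13836 tested genes, 1.91% were called and 6809 had negative log2 fold changes. The signs on the list were not tested against that share. Pnpla3, a lipid droplet protein gene, was counted 20 and 120 times in WT but 9 and 10 times in KO (log2 fold change -3.01, adjusted p = 0.169). Its estimate was -1.09 without WT replicate 2 and -3.82 without WT replicate 1. Pnpla3 passed in 4 of the 8 other settings that kept all libraries, among them DESeq2 (adjusted p = 0.00606). Fasn, the fatty acid synthase gene, had 347 and 402 CPM in WT and 343 and 212 CPM in KO (adjusted p = 0.541). Elovl6, a fatty acid elongase gene, had 82.3 and 187 CPM in WT and 92.7 and 81.8 CPM in KO (log2 fold change -0.63, adjusted p = 0.522), and without WT replicate 2 the estimate was 0.0762.

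Among 18 tested targets of FOXO factors, Irs2, Igfbp1 and Insr included, none was called, and 7 had positive and 11 negative log2 fold changes (median -0.01). The targets with the smallest p did not share a direction. Bcl6, a transcriptional repressor, was at 46.9 and 26.2 CPM in WT and 83.8 and 88.9 CPM in KO (log2 fold change 1.24, SE 0.276, adjusted p = 0.0773, edgeR). It passed with DESeq2 (adjusted p = 7.65e-04), no filter on low counts and length offsets. It did not pass with limma-voom (adjusted p = 0.0648), DESeq2's size factors (0.0736) or library size alone (0.153). Nor did it pass with the replicate number as a term (0.197, and 0.216 with length offsets). With a library left out its log2 fold change ranged from 0.87 to 1.72. G6pc, the glucose-6-phosphatase of glucose output, was at 537 and 558 CPM in WT and 419 and 318 CPM in KO (log2 fold change -0.57, adjusted p = 0.249). Ppargc1a, a coactivator of fasting genes, was at 8.30 and 9.54 CPM in WT and 4.97 and 6.05 CPM in KO (log2 fold change -0.69, adjusted p = 0.219). G6pc and Ppargc1a passed only in the 2 settings with the replicate number as a term, where 19.7% and 18.1% of all genes were called. Thus Irs2 and Bcl6 had higher, and G6pc and Ppargc1a lower, levels in both KO libraries than in either WT library. Of all 18 targets, 4 had both KO libraries above both WT libraries and 4 had both below. Of all tested genes, 21.6% and 20.4% did.

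**Figure D5:**
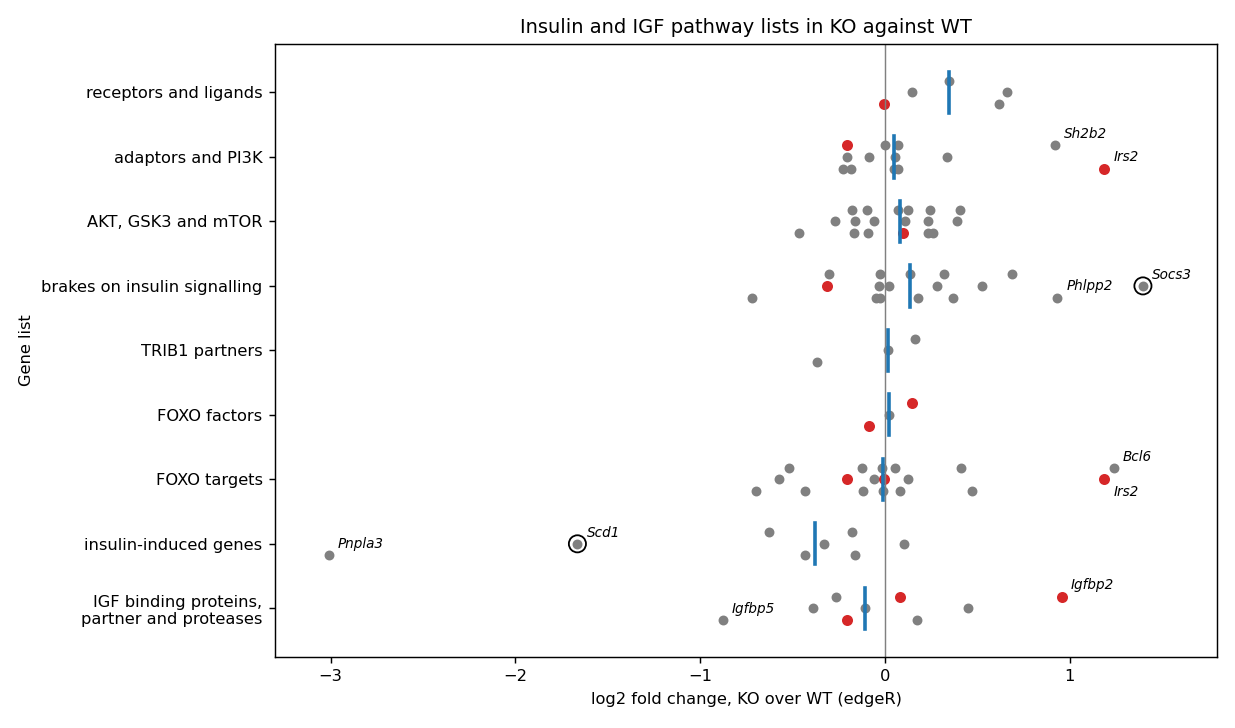
Log2 fold change of KO over WT (edgeR) for each tested gene of the 9 lists; red points are the 10 genes, grey points the others, blue bars list medians, and black rings genes with an adjusted p under 0.05. Only Socs3 (1.40) and Scd1 (-1.66) are ringed, and genes beyond 0.85 in size are named.

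Upstream of these, none of the ligands, adaptors or kinases was called. Igf1, the hormone that IGF binding proteins carry, was at 409 and 458 CPM in WT and 482 and 620 CPM in KO (log2 fold change 0.34, SE 0.192, adjusted p = 0.527, edgeR). Igf1r had between 12 and 29 reads and Igf2 between 5 and 16 reads in a library, and neither was called; the log2 fold change of Igf2 was 0.66, or 1.31 without WT replicate 2. Of the 11 tested adaptor and phosphoinositide 3-kinase genes beyond Irs1 and Irs2, Pdpk1, the kinase that activates AKT, was at 29.1 and 22.6 CPM in WT and 35.4 and 29.8 CPM in KO (adjusted p = 0.577), and the adaptor gene Sh2b2, with 26 to 101 reads, had a log2 fold change of 0.92 (adjusted p = 0.465), or 0.27 without KO replicate 1. Of 17 tested genes of AKT, GSK3 and mTOR beyond Akt2, Akt1 was at 51.3 and 43.0 CPM in WT and 64.5 and 58.8 CPM in KO (log2 fold change 0.39, adjusted p = 0.440). Tbc1d4, an AKT substrate of glucose transport, and Rps6kb2, an S6 kinase gene, had log2 fold changes of -0.47 and -0.27 (adjusted p = 0.593 and 0.616).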

How the data were processed

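Polyadenylated liver RNA was sequenced as paired reads of 101 bases from TruSeq v2 libraries, which do not mark the strand. The deposited files hold raw read counts per Ensembl gene; the submitters' processing notes name TopHat2 2.1.1, HTSeq 0.6.0 and the mm10 build, while annotation release and counting settings were not stated there. GENCODE M21 gave symbols, positions and longest transcripts for 35449 of 37315 identifiers. Genes annotated on the opposite strand within Insr, Irs1 and Foxo1 that were in the files had at most 1 read. Other overlapping genes had no count there: Vmn2r-ps88 (Insr) and 9530052E02Rik (Irs2) on the opposite strand, and Gm38034 (Foxo1) on the same strand. The part of their reads in the counts of Insr, Irs2 and Foxo1 was not tested.

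Genotypes were compared by edgeR 4.0.16 (R 4.3.3) (filterByExpr, minimum count 10 and total 15; TMM; robust quasi-likelihood F test, two-sided, genotype as the only term; Benjamini-Hochberg over 13836 genes; call at an adjusted p under 0.05). SE was |log2 fold change| / sqrt(F), and 95% intervals use the test's degrees of freedom, unadjusted. All library pairs differed by more than sampling noise (chi-square per degree of freedom 86.5 to 226). The procedure was also run on simulated counts, drawn independently for each library. These held no difference with transcript length or replicate number, so that run cannot show how calls behave under the differences seen here. Alternatives used DESeq2 1.42.0, limma-voom (limma 3.58.1), other scalings, no filter, length offsets (lowess, span 0.3), the replicate number as a term, and each library left out. The 10 genes and the lists were chosen with earlier results of these data known. The rule named Fto, the 10 genes, every called list gene and otherwise up to 3 per list with the smallest p. Igfbp3, Foxo6, Pappa, Pappa2, Stc1 and Stc2 were named after their values were seen.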

Additional observations from a re-analysis of the deposited data

How the results depend on the processing

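The count of called genes over the genome was 264 and moved to 829 with no filter on low counts, 559 with DESeq2, 480 with length offsets, and 460 to 633 with a library left out. Of the 10 genes none was called, where 1.91% of all tested genes were. The count was 1 with library size alone (1.27% of all genes), 1 with DESeq2 (3.72%), 1 with length offsets (3.51%) and 2 with no filter (3.7%). With a library left out, which of Igfbp2 and Irs2 passed depended on the library. Of the 81 tested list genes 2 were called, against 1 with library size alone, 5 with no filter, 5 with DESeq2, 4 with length offsets, and 3 to 6 with a library left out. DESeq2's size factors and limma-voom left all 3 counts within 1.5 times. The 81 are the list genes tested in the edgeR fit as reported, which tested 13836 genes. No filter tested 22419 genes and DESeq2 15030, so 81 need not be the denominator there. The share of all genes called also changed with the setting, as given above. The list counts were not tested against those shares.

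Igfbp2 passed with log2 fold changes of 0.97 (library size alone), 0.96 (no filter), 0.95 (DESeq2) and 1.02 (length offsets), and ranged from 0.79 to 1.10 with a library left out. Irs2 passed with no filter (1.19) and ranged from 0.59 to 1.98. Signs turned for Insr (0.0132 with library size alone, 4.48e-04 with no filter) and for Cop1 (-0.0673 with length offsets). With a library left out, ranges that crossed 0 were -0.39 to 0.38 for Insr, -0.51 to 0.18 for Irs1, -0.0631 to 0.23 for Akt2, -0.13 to 0.37 for Foxo1, -0.48 to 0.21 for Foxo3, -0.50 to 0.16 for Igfbp1, -0.68 to 0.0272 for Cebpb, -0.0278 to 0.0587 for Cop1, -0.11 to 0.15 for Foxo4 and -1.10 to 0.0762 for Elovl6. Igfbp4 and Trib1 kept their sign under every alternative. When a library is left out, the lone library of its group is assumed to vary like the other group. The cause of these shifts was not tested.

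Equal replicate numbers share only a number in the labels. The log2 ratio of replicate 2 over replicate 1 correlated with r = 0.387 between WT and KO across 13805 genes, which are not independent. With the replicate block 2729 genes were called (19.7%), 3 of the 10 (Igfbp2 0.96, Irs2 1.23 and Trib1 -0.32) and 19 of the 81 list genes; with length offsets and the replicate block together it was 2477 genes (18.1%), 3 of the 10 (1.02, 1.16 and -0.34) and 19 list genes, with Cop1 at -0.0579. The block left all other members uncalled. In the edgeR fit as reported, without the block, the smallest absolute log2 fold change called over the genome was 0.91.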
